A study of Rattus norvegicus with 9 samples.

Results

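The insulin-like growth factor (IGF) axis of the liver was followed here through 10 genes: the growth hormone receptor Ghr, the growth factor gene Igf1, the acid-labile subunit gene Igfals and the binding protein genes Igfbp1 to Igfbp7. They were taken by symbol from the gene tables of a rat study of liver fibrosis, where they were 10 of 17156 listed genes, and all 10 had enough counts to be tested in every comparison. The study induced hepatic fibrosis with carbon tetrachloride (CCl4), a solvent that hepatocytes convert into a toxic radical, and treated it with tormentic acid (TA), a plant triterpene. Poly(A) RNA of whole liver was sequenced from 9 male Sprague-Dawley rats in 3 groups of 3. Rats of the normal group received saline. The model group was given CCl4 by gavage, as a 50% solution in oil at 2 ml/kg, over 9 weeks. The TA group had the same CCl4 and then 6 weeks of TA at 3.0 mg/kg, a dose taken from the series' design text. The labels call these livers TA1, TA2 and TA3 and give no dose, and the study also had rats on a lower dose, so that all 3 shared 1 dose rests on that text. What the model rats received in those later weeks is not stated in the sources used here. All rats were fasted for 12 h before the livers were taken, and the labels place the model and TA livers at a hepatitis stage.

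Growth hormone from the pituitary binds its receptor on hepatocytes and, through JAK2 and STAT5, switches on Igf1 and Igfals, so that the liver supplies most of the IGF-I in the blood. In plasma most IGF-I travels in a ternary complex with IGFBP-3 and the acid-labile subunit, while the other binding proteins hold smaller, shorter-lived pools and can block or prolong the action of the factor. Hepatocytes make Igf1, Igfals, Igfbp1, Igfbp2 and Igfbp4, whereas Igfbp3 in rat liver comes largely from non-parenchymal cells, and Igfbp5 and Igfbp7 are known from stellate cells and vessels. Insulin represses Igfbp1, so fasting raises it.

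Promoter windows of 250 bases upstream of the start site, from RefSeq on the rat assembly GRCr8, were available for all 10 genes with 1 window per gene, although Igf1 and Ghr are known to start at more than 1 first exon. The first pair is shown because the insulin response core CAAAACAA, searched on both strands, occurred in Igf1 and Igfbp1 among the 10, against 1.94% of 33469 rat windows. Igf1 lies at chr7:24172282-24172531 on the plus strand and has the core at bases 67 to 60 before the start. Igfbp1 lies at chr14:86261027-86261276 on the plus strand, with the core at bases 121 to 114 and, at bases 69 to 64 on the minus strand, the HNF1 motif GTTAAT, which is found in 6.45% of windows and in none of the other 9. Capitals mark these motifs, printed as they read on the gene's own strand.
Igf1: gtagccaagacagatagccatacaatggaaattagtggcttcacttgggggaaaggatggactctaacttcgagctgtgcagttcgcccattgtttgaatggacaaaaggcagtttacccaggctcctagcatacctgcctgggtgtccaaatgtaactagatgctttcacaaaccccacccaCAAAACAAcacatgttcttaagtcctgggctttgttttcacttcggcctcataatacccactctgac
Igfbp1: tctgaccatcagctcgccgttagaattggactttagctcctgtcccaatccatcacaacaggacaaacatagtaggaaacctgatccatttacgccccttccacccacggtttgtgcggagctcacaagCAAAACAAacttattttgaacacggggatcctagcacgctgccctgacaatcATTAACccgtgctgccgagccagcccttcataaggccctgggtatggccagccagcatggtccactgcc
The second pair is shown because the windows of Ghr and Igfbp7 stood far apart in CpG content, and these genes moved in opposite directions in the model livers. A link between CpG content and these changes was not tested, and Igfbp3, whose model and normal livers overlapped, held 31 CpG. Ghr, at chr2:54432076-54432325 on the minus strand, held 0 CpG, and Igfbp7, at chr14:31091486-31091735 on the plus strand, held 26. Capitals mark each CpG.
Ghr: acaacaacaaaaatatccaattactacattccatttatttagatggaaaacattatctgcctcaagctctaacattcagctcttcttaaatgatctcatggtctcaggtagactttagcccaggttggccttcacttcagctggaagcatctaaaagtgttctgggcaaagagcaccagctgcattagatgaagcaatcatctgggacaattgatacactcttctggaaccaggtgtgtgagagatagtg
Igfbp7: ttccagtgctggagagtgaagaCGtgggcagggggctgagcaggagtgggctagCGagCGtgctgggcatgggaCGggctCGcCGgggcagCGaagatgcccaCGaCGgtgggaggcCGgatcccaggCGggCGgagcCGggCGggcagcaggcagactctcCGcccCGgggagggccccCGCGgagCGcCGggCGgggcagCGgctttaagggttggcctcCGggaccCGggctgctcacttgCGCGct
The CpG ratio (observed over expected from base composition) had a median of 0.383 over all windows, with quartiles of 0.178 and 0.714. Igf1 at 0.222 and Igfals at 0.196 were below that median with Ghr and Igfbp6 at 0.266, and the other 6 ranged from 0.484 for Igfbp5 to 0.973 for Igfbp3. The palindrome TTCNNNGAA, the core of a STAT5 site, was in 0 of the 10 windows and in 7.67% of all. TATAAA occurred in Igfbp4, 40 to 35 bases before the start, and in 12.9% of all windows. These matches describe the letters of the windows and no more.

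Libraries held 13156735 to 18090405 counts, and the 10 genes took 0.228 to 0.385% of them. Levels are given as CPM, counts scaled to a common library size, after TMM scaling over all 9 livers. The TMM factor was 1.69 for the first model liver and 0.816 to 1.16 for the other 8, so the choice of scaling matters: scaling by library totals moved the median of all genes' log2 fold changes from 0.02 to 0.65 in Model VS Normal, from -0.00 to -0.48 in TA VS Model and from -0.01 to 0.18 in TA VS Normal. The changes below are relative to the TMM median. That first model liver also stood apart in its cell markers. A set of 13 hepatocyte genes summed to 48991 CPM there, against 140768 and 150173 in the other model livers, 180127 to 215525 in normal and 151792 to 230643 in TA livers.

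Igf1, the hormone gene of the axis, had its highest levels in the normal livers. Its CPM was 563, 313 and 338 in the normal group, 118, 119 and 215 in the model group, and 234, 204 and 291 in the TA group. Every model liver was below every normal liver, the TA livers lay between the normal range and the bulk of the model range, and 1 TA liver was below the highest model liver. Model against normal gave a log2 fold change of -1.42 ± 0.41 (SE, 95% interval -2.36 to -0.48), a 2.68-fold lower level. Its adjusted p was 0.0694 by edgeR's quasi-likelihood test, so it passed the study's own call rule (unadjusted p under 0.05 and log2 fold change beyond 1) but not an adjusted p under 0.05. TA VS Model gave 0.69 ± 0.36 (interval -0.15 to 1.53, adjusted p = 0.380) and TA VS Normal -0.77 ± 0.28 (interval -1.40 to -0.14, adjusted p = 0.404), where the TA and normal livers did not overlap. Without normal liver 1 Igf1 was at -1.12 in Model VS Normal and at -0.46 in TA VS Normal.

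Ghr, through which growth hormone reaches the hepatocyte, had a CPM of 404, 396 and 255 in normal livers, 44.5, 126 and 245 in model livers, and 269, 437 and 220 in TA livers. The model livers were all below the normal ones, though the third came close to the lowest normal liver, and the TA livers overlapped both groups. Model VS Normal gave a log2 fold change of -1.34 ± 0.58 (adjusted p = 0.173), which met the study's rule by a small margin at an unadjusted edgeR p of 0.0499, and -0.94 without the first model liver, -2.06 without the third. TA VS Model gave 1.16 ± 0.60 (interval -0.24 to 2.55, adjusted p = 0.378), or 0.74 without the first model liver and 1.87 without the third, and TA VS Normal -0.22 ± 0.31 (interval -0.93 to 0.49).

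Igfals encodes the acid-labile subunit, which closes the ternary complex. Its CPM was 365, 262 and 283 in the normal group, 37.3, 74.6 and 208 in the model group, and 162, 287 and 223 in the TA group. The model livers were all below the normal livers and far apart from each other, with the third one inside the TA range. Igfals was called lower in Model VS Normal by the study's rule, at -1.50 ± 0.59 on the log2 scale (adjusted p = 0.142), with -1.12 without the first model liver and -2.45 without the third. In TA VS Model it differed by 1.07 ± 0.60 (interval -0.32 to 2.47, adjusted p = 0.402), or by 0.68 without the first model liver and 2.02 without the third. Of the 45 pairs among the 10 genes, Igfals and Ghr had the closest profiles over the 9 livers, with a root-mean-square difference of 0.315 in centred log2 CPM, and Igf1 lay 0.546 from Igfals and 0.656 from Ghr.

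**Figure D1:**
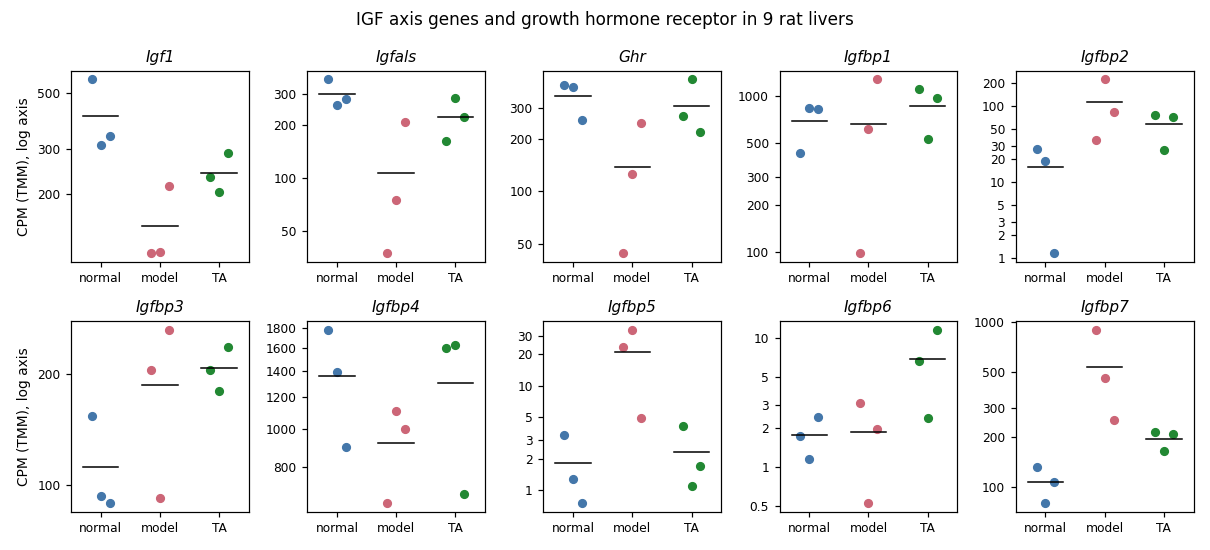
Expression of the 10 genes in each liver, in CPM after TMM scaling on log axes whose ranges differ between panels; each point is 1 liver in the order of its replicate number and each line a group mean (n = 3). Igf1, Igfals and Ghr have all 3 model livers below the normal livers, and Igfbp2, Igfbp5 and Igfbp7 have all 3 above.

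In bulk liver RNA, fewer cells of a type and less RNA per cell cannot be told apart. Hepatocyte markers are given beside these 3 genes: 7 of the 13 did not overlap between model and normal livers, against 38.2% of all genes, their log2 fold changes had a median of -0.84 for model against normal and of 0.72 for TA against model, and none was called by either rule in any comparison. Their part in the levels of Igf1, Igfals and Ghr was not tested.

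Igfbp7, whose product binds IGFs weakly and also insulin, and sits in the matrix around vessels and stellate cells, rose in the model group. Its CPM was 132, 79.5 and 107 in normal livers, 904, 458 and 256 in model livers, and 214, 165 and 209 in TA livers. The 3 groups did not overlap, with TA between normal and model. Model VS Normal gave a log2 fold change of 2.35 ± 0.52 (interval 1.15 to 3.55, 5.11-fold, adjusted p = 0.0383 by edgeR). The size leaned on the first model liver: without it the change was 1.74 (3.34-fold, adjusted p = 0.0225). In TA VS Model Igfbp7 met the study's rule as lower, at -1.46 ± 0.51 (interval -2.63 to -0.29, adjusted p = 0.269), and without the first model liver the difference was -0.85, or 1.80-fold. In TA VS Normal it was 0.86 ± 0.24 above (interval 0.32 to 1.40, adjusted p = 0.223). With the replicate number as a block, an alternative edgeR fit although no label pairs the livers, its adjusted p was 0.0402 (range over the alternatives 0.0402 to 0.765).

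Igfbp5, the binding protein most tied to matrix and mesenchymal cells, was a minor transcript that rose by the largest factor of the 10 in Model VS Normal. It had 41, 20 and 9 counts in normal livers, 519, 519 and 70 in model livers, and 58, 13 and 23 in TA livers. These gave a CPM of 3.40, 1.29 and 0.755 in normal, 23.2, 34.1 and 4.95 in model, and 4.13, 1.10 and 1.72 in TA livers. Every model liver exceeded every liver of the other groups, narrowly for the third, and the TA and normal livers overlapped. Model VS Normal gave 3.52 ± 0.80 (interval 1.69 to 5.36, 11.5-fold, adjusted p = 0.0400). TA VS Model gave -3.15 ± 0.76 (interval -4.92 to -1.38, 8.89-fold lower), which met the study's rule with an adjusted p of 0.246 by edgeR and 0.00247 by DESeq2, in a range of 0.00247 to 0.567 over the alternatives. TA VS Normal gave 0.33 ± 0.68 (interval -1.22 to 1.89). The first model liver decided little here, with 3.42 and -3.05 in the first and second of these comparisons without it.

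The adjusted calls of Igfbp5 and Igfbp7 in Model VS Normal both needed the full set of livers in 4 of 6 cases. Without normal liver 1, 2 or 3 or model liver 2, the adjusted p was 0.0759, 0.173, 0.152 or 0.0785 for Igfbp5 and 0.114, 0.175, 0.152 or 0.0623 for Igfbp7, with log2 fold changes that stayed between 2.97 and 4.30 for Igfbp5 and between 2.16 and 2.53 for Igfbp7. Markers of stellate cells and myofibroblasts were higher in the model group as well, but Lrat (-0.02) and Reln (0.25) changed little in Model VS Normal. Their sum, like Igfbp7, peaked in the first model liver. Igfbp5 had 519 counts in each of the first and second model livers, and was higher in the second only after TMM scaling (34.1 against 23.2 CPM). A set of 11 stellate cell and myofibroblast genes summed to 233 to 329 CPM in normal, 12719, 1228 and 1499 in model and 708 to 1203 in TA livers. In Model VS Normal 6 of the 11 were called higher at adjusted p and 9 by the study's rule, against 6.86% and 16.6% of all genes. The 8 cholangiocyte markers summed to 19.8 to 34.1 CPM in normal, 2027, 219 and 136 in model and 37.7 to 58.6 in TA livers. All 8 were called higher in Model VS Normal by the study's rule, against 16.6% of all genes. The 9 endothelial markers summed to 246 to 322 CPM in normal, 250 to 407 in model and 291 to 357 in TA livers, but went both ways in Model VS Normal, where Cdh5 (1.75), Vwf (1.83), Plvap (1.19) and Cd34 (3.36) were higher and Kdr (-1.01) lower by the study's rule. Mesothelial markers summed to 0.420 to 2.16 CPM in normal, 33.9, 80.9 and 22.0 in model and 3.47 to 12.0 in TA livers. They peaked in the second model liver, with Upk1b and Lrrn4 at 0 in all normal livers. Macrophage markers summed to 333 to 455 CPM in normal, 1921, 265 and 379 in model and 358 to 796 in TA livers, and went both ways in Model VS Normal. At adjusted p 2 of the 10 rose, Gpnmb and Trem2, against 6.86% of all genes. By the study's rule 5 were higher (16.6% of all) and 2 lower (5.55% of all), Marco (-2.17) and Cd5l (-1.14). No stellate, cholangiocyte, endothelial or macrophage marker that was measured was at 0 in all livers of a group. Their part in the levels of Igfbp5 and Igfbp7 was not tested.

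Igfbp2, a hepatocyte binding protein that is high in fetal liver and in fasting, had the widest spread of the 10 in log2 CPM over the 9 livers. Its CPM was 27.3, 18.9 and 1.17 in normal livers, 35.7, 222 and 83.3 in model livers, and 75.1, 26.0 and 72.1 in TA livers. Model livers were all above the normal ones, while the third normal liver, with 14 counts, lay far under the other 2. Igfbp2 was called higher in Model VS Normal by the study's rule, at 2.85 ± 1.02 on the log2 scale (interval 0.50 to 5.20, adjusted p = 0.116), with 2.27 without that normal liver and 1.91 without the second model liver. TA VS Model gave -0.97 ± 0.67 (interval -2.52 to 0.58), which became -0.04 without the second model liver, and TA VS Normal gave 1.83 ± 0.84 (interval -0.08 to 3.75, adjusted p = 0.553).

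Igfbp3 encodes the main carrier of the ternary complex. It had a CPM of 154, 92.9 and 89.0 in the normal group, 205, 91.9 and 265 in the model group, and 206, 180 and 238 in the TA group. The second model liver sat with the normal livers, whereas all 3 TA livers were above all normal livers. In TA VS Normal the difference was 0.86 ± 0.26 on the log2 scale (interval 0.27 to 1.46, adjusted p = 0.280), in Model VS Normal 0.75 ± 0.44 (interval -0.26 to 1.76, adjusted p = 0.293), and in TA VS Model 0.15 ± 0.42 (interval -0.83 to 1.13), where library totals alone turned it to -0.33.

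Igfbp6, which prefers IGF-II, was near the detection range and had 21, 18 and 29 counts in normal, 70, 8 and 28 in model, and 92, 28 and 154 in TA livers. Its CPM was 1.74, 1.16 and 2.43, then 3.13, 0.526 and 1.98, then 6.55, 2.37 and 11.5 in that order of groups. TA livers 1 and 3 were above every other liver, and TA liver 2 lay within the normal and model ranges. By the study's rule Igfbp6 was higher in TA VS Model, at 1.84 ± 0.74 (adjusted p = 0.303), and in TA VS Normal, at 1.91 ± 0.57 (interval 0.60 to 3.22, adjusted p = 0.280), and leaving out the third TA liver gave 1.25 and 1.31. Model VS Normal gave 0.10 ± 0.66 (interval -1.42 to 1.63).

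Igfbp1, the acute insulin-repressed binding protein, and Igfbp4, an inhibitory one, had the highest FPKM of the 7 in normal livers and were called in no comparison. Igfbp1 had a CPM of 426, 832 and 821 in normal, 98.1, 615 and 1271 in model, and 1101, 527 and 964 in TA livers. The range of the model livers enclosed both other groups, and Model VS Normal gave -0.06 ± 0.79 (interval -1.89 to 1.76), or 0.42 without the first model liver. Igfbp4 had a CPM of 1782, 1391 and 901 in normal, 648, 1112 and 998 in model, and 1599, 1633 and 683 in TA livers, with overlap between all groups. It differed by -0.56 ± 0.47 in Model VS Normal (interval -1.64 to 0.52), by 0.00 with library totals alone, and by 0.51 ± 0.52 in TA VS Model (interval -0.69 to 1.70).

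Counted together, 2 of the 10 genes were called in Model VS Normal at adjusted p, where 7.87% of 12730 genes were, and both were higher, as were 6.86% of all genes. By the study's rule 6 were called, against 22.1% of all genes: 3 higher (16.6% of all) and 3 lower (5.55% of all). Leaving out each liver in turn, the study's rule called Igf1, Igfbp5 and Igfbp7 every time, but lost Igfbp2 in 2 of 6 cases (without normal liver 2 or model liver 2), Igfals in 4 (without any 1 of the normal livers or model liver 2) and Ghr in 5 (whichever liver but model liver 3 was left out). The lower calls also depended on the scaling. With library totals alone Igf1 (-0.85), Igfals (-1.05) and Ghr (-0.89) were no longer called, Igfbp3 joined Igfbp2, Igfbp5 and Igfbp7 as higher, and the calls over all genes split into 3738 higher and 221 lower in place of 2112 and 706. Groups did not overlap for the same number, 6 of 10, against 38.2% of all genes. In TA VS Model no member was called at adjusted p by edgeR, and no gene of the 12781 was (0% of all). By unadjusted p under 0.05 there were 3 of the 10 and 15.6% of all genes. At adjusted p DESeq2 called 1 of the 10, Igfbp5 (520 of 16948 genes), and limma voom none (169 of 12781 genes). The study's rule called 3 of 10 against 12.3% of all genes, Igfbp5 and Igfbp7 as lower (10.2% of all) and Igfbp6 as higher (2.11% of all, and not called with library totals or upper-quartile scaling), with 270 higher and 1301 lower calls over all genes, or 89 and 2358 with library totals. Igfbp5 was called whichever liver was left out, Igfbp7 not without model liver 1 or any 1 of the TA livers, and Igfbp6 not without model liver 2 or 3 or TA liver 1 or 3. For 2 of 10 against 23.1% of all genes the groups did not overlap. The replicate block in TA VS Model raised the members called by the study's rule to 5 (1719 of 12781 genes), adding Ghr at 1.44 and Igfals at 1.41 as higher. In TA VS Normal edgeR called 0 of 10 at adjusted p, against 0.263% of 12179 genes, with 4 of 10 at unadjusted p under 0.05 (9.43% of all). At adjusted p DESeq2 called 1 (332 of 16048 genes) and limma voom none (127 of 12179). The study's rule called 1 of 10, against 5.25%, as higher (4.24% of all), or 4 with library totals alone (796 of 12179). For 3 the groups did not overlap, against 15.1%. With the replicate block Igfbp7 alone passed at adjusted p in TA VS Normal (203 of 12179 genes), and the study's rule called 2 (730 of 12179). The TA and model contrasts share the same livers, so the 3 sets of values are not independent of each other.

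**Figure D2:**
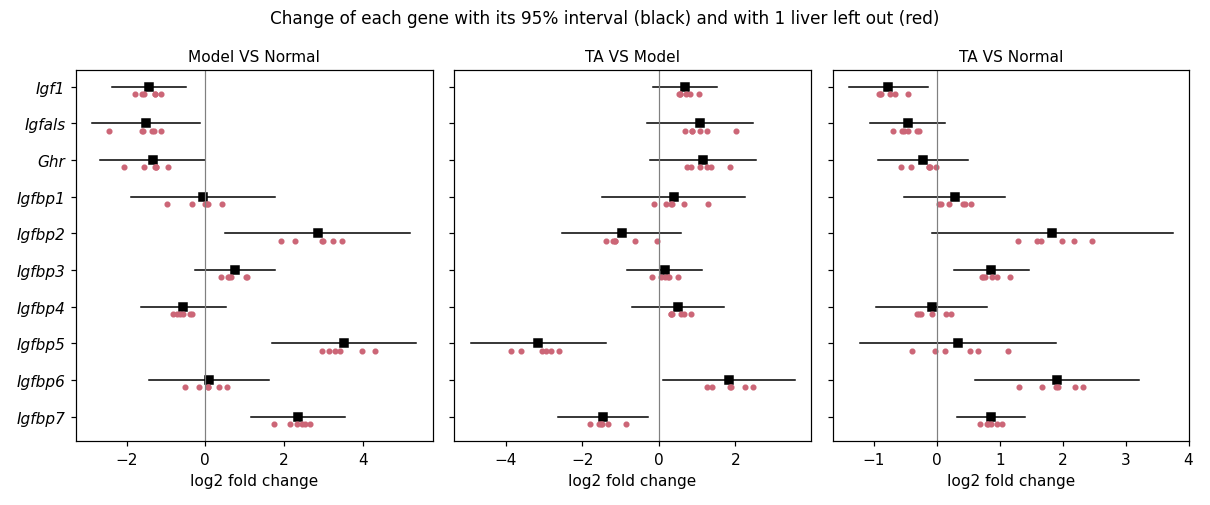
Log2 fold change of each gene in the 3 comparisons; black squares are the edgeR estimates with 95% intervals as black lines, and red points the estimates with 1 liver left out each time. Intervals of Igfbp5 and Igfbp7 lie above 0 in Model VS Normal and below 0 in TA VS Model, while Igfbp1 and Igfbp4 cross 0 in every panel.

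FPKM, which divides by transcript length, allows genes to be set side by side. In normal livers the order of mean FPKM was Igfbp4 (526 ± 178, SD, n = 3), Igfbp1 (380 ± 126), Igf1 (177 ± 60.9), Igfals (113 ± 20.6), Ghr (94.4 ± 24.4), Igfbp7 (80.7 ± 19.6), Igfbp3 (39.2 ± 13.0), Igfbp2 (10.5 ± 8.84), Igfbp6 (1.39 ± 0.464) and Igfbp5 (0.261 ± 0.203). Neighbours in that order had overlapping ranges except Igf1 over Igfals, Igfbp7 over Igfbp3, Igfbp3 over Igfbp2 and Igfbp6 over Igfbp5. In model livers Igfbp7 had the highest mean (705 ± 605), which came from the first liver, and its range overlapped that of Igfbp4 (526 ± 57.2). Igf1 (97.7 ± 23.7) then ranked sixth, with a range that overlapped those of Igfbp2 and Igfbp3. In TA livers the order began with Igfbp4 (564 ± 241), Igfbp1 (535 ± 207), Igfbp7 (167 ± 30.0) and Igf1 (118 ± 21.9), and the ranges of Igfbp7 and Igf1 overlapped.

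The make-up of the 7 binding protein transcripts shifted with these levels. Igfbp4 was 49.9% ± 12.4 of their summed FPKM in normal, 27.6% ± 5.12 in model and 40.3% ± 15.9 in TA livers (SD, n = 3), and Igfbp1 was 37.4% ± 14.4, 26.6% ± 22.0 and 38.1% ± 11.5. Igfbp7 was 7.85% ± 2.04 in normal livers, 63.0, 26.9 and 13.6% in the 3 model livers, and 12.2% ± 2.07 in TA livers. Its share was above the normal range in all model and TA livers, and the third model liver fell within the TA range. Igfbp2, Igfbp3, Igfbp5 and Igfbp6 together made 4.86% ± 1.62, 11.3% ± 2.53 and 9.48% ± 2.91.

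**Figure D3:**
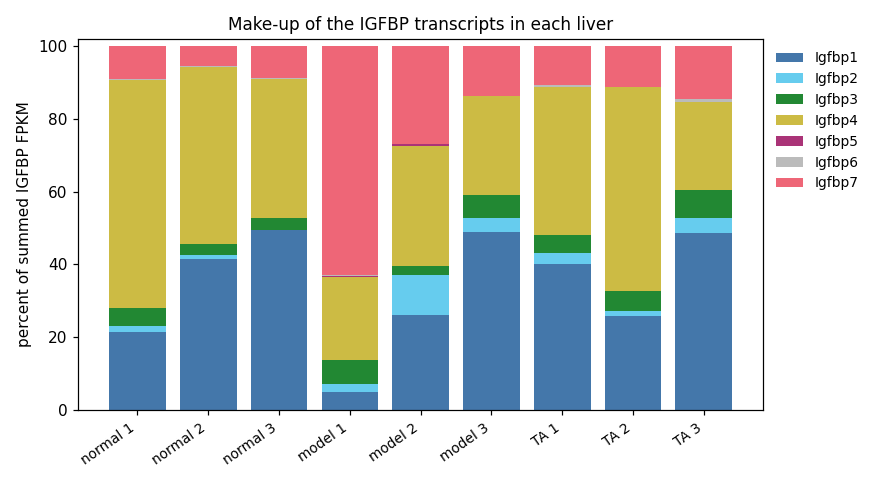
Percent of the summed FPKM of Igfbp1 to Igfbp7 that each gene took, 1 bar per liver. The Igfbp7 segment takes 63.0% of the first model liver and 13.6% of the third, against a mean of 7.85% in normal livers.

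Ratios within a liver do not depend on how libraries are scaled. The 7 binding protein transcripts summed to 4.46, 8.06 and 6.19 times the FPKM of Igf1 in normal livers, 21.2, 25.0 and 15.2 times in model livers, and 14.8, 12.7 and 8.61 times in TA livers. The 3 groups did not overlap, with the TA livers between the others. Igfbp3 per Igf1 was 0.219, 0.237 and 0.210 in normal, 1.39, 0.618 and 0.987 in model and 0.706, 0.707 and 0.653 in TA livers, so every liver given CCl4 was above every normal one. Igfbp3 per Igfals, the carrier against the subunit that joins it in the ternary complex, was 0.397, 0.334 and 0.296 in normal, 5.17, 1.16 and 1.20 in model and 1.20, 0.589 and 1.00 in TA livers. Here too the normal livers were lowest, and the model and TA ranges overlapped, with model liver 2 at 1.16 below TA liver 1 at 1.20. Each ratio combines genes already described, so it is given with no test.

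**Figure D4:**
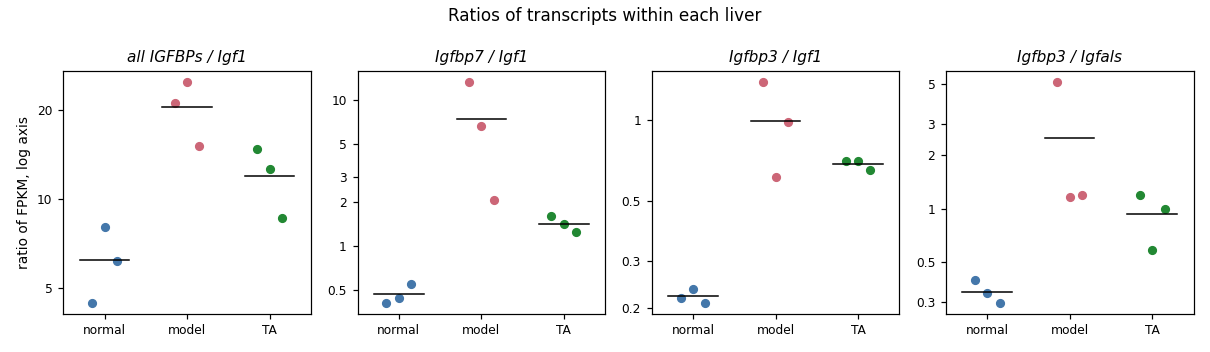
Ratios of FPKM within each liver on log axes, 1 point per liver with group means as lines (n = 3). Igfbp3 per Igf1 was 0.210 to 0.237 in normal livers and 0.618 to 1.39 in model livers.

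Genes with the most similar profiles were sought among 7958 to 7959 genes by the root-mean-square difference of centred log2 CPM over the 9 livers, which all profiles share. For Ghr these were F9 (0.120), a clotting factor gene, and Dhtkd1 (0.144), for Igfals Lonp2 (0.118) and Gramd1c (0.200), and for Igf1 Enpep (0.237) and LOC301124 (0.243). Igfbp4 was nearest to Tram1 (0.120) and Amt (0.153), and Igfbp1 to Crot (0.364) and Acad11 (0.410), a pair in fatty acid oxidation. Igfbp7 lay nearest to Ahnak (0.144) and Tspan3 (0.165), Igfbp5 to Lama5 (0.652), a laminin chain gene, and Anxa2 (0.674), and Igfbp3 to Spon2 (0.306) and Il1b (0.342). Igfbp6 was nearest to Hspb1 (0.662) and Psmg3 (0.760), and Igfbp2 to Serpina7 (1.01) and Pla1a (1.13). Of the members that are neighbouring coding genes in GRCr8, Igfbp1 and Igfbp3 on chromosome 14 differed by 1.22, and Igfbp2 and Igfbp5 on chromosome 9 by 1.55, which was the smallest distance from Igfbp2 to any other member, given that its own profile spread by 1.96.

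The wider growth hormone and IGF pathway was described by 8 lists of 89 genes, 62 of them tested in the comparisons with the model group and 60 in TA VS Normal. In Model VS Normal 7 (11.3%) were called at adjusted p, 5 higher and 2 lower, against 7.87% of all genes, and 14 (22.6%) by the study's rule, 10 higher and 4 lower, against 22.1%. TA VS Model had 0 at adjusted p by edgeR, as over all genes, and 12 (19.4%) by the study's rule, 5 higher and 7 lower, against 12.3%. TA VS Normal had 1 at adjusted p and 10 (16.7%) by the study's rule, 8 of the 10 higher, against 0.263% and 5.25%. With the replicate block, the count at adjusted p in TA VS Normal went from 1 to 6, while over all 12179 genes it went from 32 to 203. Each adjusted call of these lists was lost without at least 1 liver. By the study's rule 9 of the 14, 1 of the 12 (Cish) and 9 of the 10 were called again whichever liver was left out. The median log2 fold change of the lists was 0.01, 0.10 and 0.08 in these comparisons, against 0.02, -0.00 and -0.01 over all genes.

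Of the other ligands and receptors, 5 of 11 were tested and none was called. Igf2r, the clearance receptor for IGF-II, differed by 0.60 ± 0.26 in Model VS Normal (adjusted p = 0.167), and the insulin receptor gene Insr by -0.60 ± 0.43. Among 18 signalling genes Grb10, an adaptor that restrains insulin and IGF receptors, passed the study's rule as higher in Model VS Normal (1.73 ± 0.55, adjusted p = 0.0888) and as lower in TA VS Model (-1.88 ± 0.58, adjusted p = 0.260). Its CPM was 30.4 in the first model liver and 9.40 and 7.00 in the other model livers, against 4.70 to 4.76 in normal livers. Without that first model liver both calls of Grb10 ended, at 0.78 and -0.93. None of 7 insulin-repressed fasting genes was called in any comparison.

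Cish and Socs2, which STAT5 switches on and whose products shut off the growth hormone receptor, were highest in the TA group. Cish had a CPM of 3.07, 1.80 and 2.35 in normal, 5.15, 4.01 and 3.82 in model and 20.4, 43.1 and 8.65 in TA livers. Socs2 had 9.80, 2.25 and 4.36, then 5.15, 4.73 and 23.3, then 41.5, 24.7 and 50.0 in the same order. All TA livers were above all others for both genes. Both met the study's rule in TA VS Model (Cish 2.47 ± 0.55, adjusted p = 0.231, Socs2 1.82 ± 0.64, adjusted p = 0.272) and in TA VS Normal (Cish 3.30 ± 0.57, adjusted p = 0.0705, Socs2 2.80 ± 0.51, adjusted p = 0.0845). With the replicate block in TA VS Normal the adjusted p was 0.0315 for Cish (range over the alternatives 4.61e-07 to 0.236) and 0.00869 for Socs2 (range 4.49e-06 to 0.296). Without the second TA liver Cish was at 1.76 and 2.56, and Socs2 ranged from 1.45 to 2.98 in TA VS Model over the livers left out. Of the 8 feedback inhibitors, Socs5 was the 1 called at adjusted p in Model VS Normal, where it rose by 1.44 ± 0.35 (adjusted p = 0.0460). That adjusted call was kept in 1 of 6 leave-outs, and Socs5 was at 0.98 without the first model liver.

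In all, 12 sex-biased or growth hormone responsive liver genes were tested. Srd5a1, a steroid reductase gene, fell in Model VS Normal (-1.53 ± 0.38, adjusted p = 0.0488) and met the study's rule as lower in TA VS Normal (-1.76 ± 0.29, adjusted p = 0.0587), with a CPM of 66.3 to 146 in normal, 28.0 to 52.8 in model and 30.1 to 35.3 in TA livers. Its adjusted call in Model VS Normal was kept in 1 of 6 leave-outs, while the study's rule called it there every time. Bcl6, a repressor that growth hormone lowers in liver, had a CPM of 96.9, 71.8 and 126 in normal, 25.3, 37.0 and 55.3 in model and 16.4, 12.1 and 40.7 in TA livers. It met the study's rule as lower in Model VS Normal (-1.32 ± 0.35, adjusted p = 0.0596) and TA VS Normal (-2.12 ± 0.45, adjusted p = 0.119). With the replicate block in TA VS Normal the adjusted p was 0.00725 for Bcl6 (range over the alternatives 0.000260 to 0.423) and 0.0263 for Srd5a1 (range 1.24e-05 to 0.290). Onecut1, a liver transcription factor gene that growth hormone induces, passed that rule as higher in TA VS Model (1.64 ± 0.65, adjusted p = 0.300) and TA VS Normal (2.72 ± 0.62, adjusted p = 0.147). Its CPM was 16.5, 16.3 and 3.13 in TA livers and 1.88, 4.87 and 4.88 in model livers, so the third TA liver lay within the model range. The TA VS Model call was lost in 4 of 6 leave-outs. By the study's rule the male-biased Hsd3b5 was lower in Model VS Normal (-1.50 ± 0.60), and the male-biased Cyp4a2 higher in TA VS Model (2.10 ± 0.87). The female-biased Cyp2c12 was higher in Model VS Normal (1.10 ± 0.44) and lower in TA VS Model (-1.21 ± 0.40), and the female-biased Cux2 lower in TA VS Model (-1.87 ± 0.76), at 0.507 to 6.12 CPM over the 9 livers. Both rested on the second model liver, without which Cyp2c12 was at 0.51 and -0.63 and Cux2 at -0.79. Over the livers left out Hsd3b5 ranged from -2.67 to -1.15 and Cyp4a2 from 1.67 to 3.67, both largest without the third model liver. The study's rule lost Hsd3b5 in 5 of 6 leave-outs and Cyp4a2 in 4 of 6. None of the calls of Hsd3b5, Cyp4a2, Cyp2c12 and Cux2 had an adjusted p under 0.05.

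**Figure D5:**
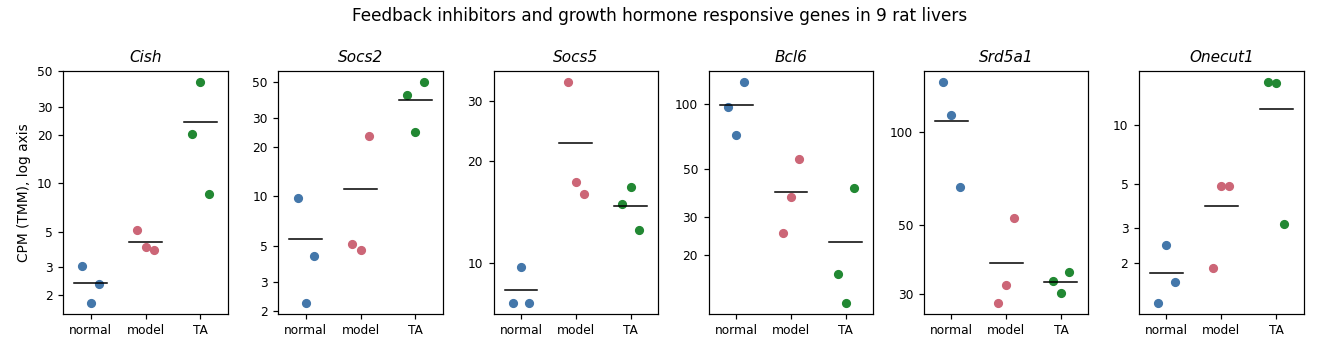
CPM after TMM scaling of 3 feedback inhibitor genes and 3 growth hormone responsive genes in each liver on log axes, with group means as lines (n = 3). All TA livers are above all other livers for Cish and Socs2, and Bcl6 and Srd5a1 are highest in the normal livers.

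Several proteins carry a domain like that of the binding proteins. Of 7 IGFBP-related genes tested in Model VS Normal, 3 rose at adjusted p and 6 were higher by the study's rule, against 6.86% and 16.6% of all genes. Ctgf, the CCN family gene known as a mediator of fibrosis, rose by 2.88 ± 0.30 (adjusted p = 0.00871), its relative Nov by 2.95 ± 0.59 (adjusted p = 0.0294) and the protease gene Htra3 by 5.07 ± 0.73 (adjusted p = 0.0125). Cyr61 (1.47 ± 0.47), Wisp2 (2.34 ± 0.62) and Kazald1 (3.02 ± 0.89, or 1.37 without the first model liver) met the study's rule alone. Htra3 was also called at adjusted p in TA VS Normal (3.17 ± 0.38, adjusted p = 0.0220), where Ctgf, Nov and Cyr61 passed the study's rule at 2.08 ± 0.59, 2.55 ± 0.50 and 1.04 ± 0.23. Ctgf had 89.3 CPM in the first TA liver against 15.9 and 27.6 in the others, and its difference was 1.05 without it. Kazald1 and Htra3 were lower in TA VS Model by that rule, at -2.78 ± 0.87 and -1.87 ± 0.62, and at -1.13 and -0.83 without the first model liver.

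Mmp2, a matrix metalloproteinase that also cleaves binding proteins, was the 1 of 5 tested genes for proteases and their inhibitors that rose at adjusted p in Model VS Normal. Its CPM was 18.3, 9.65 and 6.04 in normal, 374, 70.8 and 97.3 in model and 74.9, 55.5 and 51.8 in TA livers, with all TA livers above all normal ones. Model VS Normal gave a log2 fold change of 4.0 ± 0.75 (adjusted p = 0.0263), or 2.87 without the first model liver. TA VS Normal gave 2.39 ± 0.39 (adjusted p = 0.0551, or 0.00466 with the replicate block, in a range of 1.13e-06 to 0.245 over the alternatives), and TA VS Model gave -1.58 ± 0.62 (adjusted p = 0.298), or -0.46 without that liver. Stc1, whose product inhibits a binding protein protease, was lower in TA VS Model by the study's rule (-1.59 ± 0.58) at 0.373 to 2.06 CPM in these livers. Igf2bp3, an mRNA-binding protein gene named for IGF-II transcripts, was the 1 tested of its list and fell by 2.10 on the log2 scale in Model VS Normal (SE 0.42, adjusted p = 0.0293), with 5.37 to 8.62 CPM in normal and 1.03 to 2.10 CPM in model livers. It met the study's rule as higher in TA VS Model (1.63 ± 0.56, adjusted p = 0.268).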

How the data were processed

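RNA-seq was analysed in 9 rat livers, 3 each from the normal, model and TA groups, grouped by their labels. Per the labels and the methods, the authors made poly(A) libraries with NEBNext Ultra, sequenced paired ends, trimmed reads with Trimmomatic and Cutadapt, aligned them with STAR and counted reads per gene with HTSeq-count. A human genome is named in the methods and a mouse build in the submitters' processing notes, while the gene symbols are those of rat, so the build behind the counts is not settled, and no coordinates were taken from the files. The deposited values used were the raw read counts per gene and, for levels compared between genes, the FPKM that the authors computed from them. The tables also hold counts divided by size factors and the authors' own fold changes and p-values for each comparison, which were not used. Model VS Normal and TA VS Model were each fitted from their own table, and TA VS Normal on the 16730 genes present in both.

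Counts were filtered with filterByExpr, scaled by TMM and tested with edgeR 4.0.16 (quasi-likelihood, R 4.3.3) on the 2 groups compared, with Benjamini-Hochberg adjustment over all genes tested. Calls were an adjusted p under 0.05, or the study's rule, which asks for p under 0.05 before adjustment together with a log2 fold change beyond 1. With 3 livers against 3, an exact permutation test cannot go below 0.1. The edgeR p-values set each group difference against the spread between rats, estimated with help from all genes. The fits were tested on simulated data. DESeq2 1.42.0, limma 3.58.1 (voom), other scalings, filters, a replicate block and leaving out each liver were alternatives. Same-numbered livers come from different rats. Their deviations from the group means correlated at 0.256, 0.424 and 0.498 in TA VS Normal. No label states a pairing, and with 3 livers per group this check cannot decide whether the numbers pair them. Blocked values are therefore an alternative only. They stand beside the unblocked fit where an adjusted call changed in TA VS Normal, and for the study's rule they are given with the counts of members called. The correlations were 0.211, -0.0567 and -0.0521 in Model VS Normal and 0.219, -0.0354 and 0.00668 in TA VS Model. Totals of 13156735 to 18090405 counts make a gene at 1 CPM rest on few reads. Members, pathway lists and markers were chosen with earlier results of these data known. Named were the 10 members, the list genes that passed a call rule, and the 2 genes with the nearest profile to each member (prior count 2, mean log2 CPM of at least 3), and Igf2r and Insr were added after their values were seen. Promoters were matched by symbol to RefSeq on GRCr8. Ctgf, Nov, Cyr61 and Wisp2 are older symbols of CCN genes.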

Additional observations from a re-analysis of the deposited data

How the results depend on the processing

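Of the member log2 fold changes under the alternatives, 158 kept their direction in Model VS Normal and 12 did not, 167 and 3 in TA VS Model, and 165 and 5 in TA VS Normal. All of the turned values belonged to members that the main edgeR settings called by neither rule in that comparison, though Igfbp3 was called in Model VS Normal with library totals, and the cause was not tested. In Model VS Normal Igfbp1 turned to 0.35 with library totals alone, 0.05 with upper-quartile scaling, 0.19 with limma voom, and 0.08, 0.04 and 0.42 without normal liver 2, normal liver 3 and model liver 1 (from -0.97 to 0.42 over the livers left out). Igfbp3 turned to -0.04 with voom and Igfbp4 to 0.00 with library totals. Igfbp6 turned to -0.97 with voom, -0.13 with the replicate block, and -0.15 and -0.52 without normal liver 2 and model liver 1 (from -0.52 to 0.54). In TA VS Model Igfbp1 was -0.12 without model liver 1 (up to 1.29 without model liver 3), and Igfbp3 was -0.33 with library totals and -0.18 without model liver 2 (up to 0.50). In TA VS Normal Igfbp4 was 0.10 with library totals, 0.22 without TA liver 3 and 0.15 without normal liver 1 (down to -0.31), and Igfbp5 was -0.39 without TA liver 1 and -0.03 without normal liver 3 (up to 1.13).

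The count of members called moved with the tool, the scaling and single livers. At adjusted p, Model VS Normal called 2 (1002 of all genes) by edgeR, 5 (2714) by DESeq2 and 6 (3433) by voom, and 0 to 5 (0 to 2537 of all genes) with 1 liver left out, the 0 without normal liver 1, 2 or 3 or model liver 2 and the 5 without model liver 3. DESeq2 called 1 in TA VS Model (520 of all genes against 0) and 1 in TA VS Normal (332 against 32), where it was Igfbp6 with an adjusted p of 0.0491 (range over the alternatives 0.0491 to 0.645). By the study's rule Model VS Normal had 6 (2818 of all genes), and 3 to 6 with 1 liver left out, the 3 without normal liver 2 (2352). TA VS Model had 3 (1571), but 6 with voom (1711). With 1 liver left out it had 1 to 5: 1 without TA liver 1 (1368) or 3 (1252), 5 without model liver 3 (2792). TA VS Normal had 1 (640), but 4 with library totals (796) and 2 with no filter (883). With 1 liver left out it had 1 to 4: 4 without normal liver 1 (746), 2 without TA liver 2 (777) or normal liver 3 (658). With the replicate block TA VS Normal called 1 member at adjusted p (203 of all genes against 32) and 2 by the study's rule (730). TA VS Model then called 0 at adjusted p (0 of all genes) and 5 by the study's rule (1719). The block changed no other member's adjusted call. With CPM in place of FPKM the share of Igfbp4 in model livers was 37.4%, and that of Igfbp7 4.69% in normal and 7.59% in TA livers. Igfbp5 and Igfbp6 rest on as few as 9 and 8 reads per liver, so small differences in them were not detectable at this depth.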
